A study of Mus musculus with 9 samples.

Results

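The 10 genes described here encode proteins of the contractile machinery of heart and skeletal muscle, namely Acta1, Actc1, Myl7, Myl4, Myl1, Myh3, Tnnt2, Tnnt3, Tnnc1 and Ckm. They were selected on their measured array values, since muscle transcripts differed between the grafts and the ovaries before transplantation, and between the day 0 arrays themselves, so that their values against day 0 and between the day 0 arrays are given as a description, with no test. The 10 genes are among 18194 genes that had at least 1 probe set (a set of short probes against 1 transcript) annotated to them alone, and 14 of the 45101 probe sets belong to them. Of the 10, 7 had 1 probe set, 2 had 2 and 1 had 3. A gene with several was represented by the probe set of highest mean over the 9 arrays, and the others served as a check.

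In the study, XX ovaries from fetuses of E13.0, dissected without the mesonephros, were grafted under the kidney capsule of adult XY nude mice to follow the partial masculinization of ovarian somatic cells in a male host. Whole-genome mouse arrays were run on the grafts of day 4 (1 array), day 7 (1 array), day 10 (2 arrays), day 15 (1 array) and day 20 (2 arrays) post-transplantation and on ovaries not grafted (day 0, 2 arrays). The mothers of all groups, day 0 included, had received busulfan, which kills germ cells, and the labels give ICR as the strain of the ovaries, whereas the paper names C57BL/6 and ICR for the pregnant females. Each array held the RNA of a pool (approximately 10 grafts in the grafted samples), and how litters and hosts were spread over the pools is not stated, so that p-values measure no more than the spread from pool to pool. The pools of grafts may hold host vessels and other host tissue recovered with them.

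The deposited values are log2 intensities, and the array medians lay between 6.49 and 6.63. A level under 4.82, the 25th percentile of the whole table, was treated as close to background. The duplicate arrays of a day differed with a standard deviation of 0.45 on day 0, 0.34 on day 10 and 0.70 on day 20 over all probe sets. The mean level of 8 genes of gonadal somatic cells lay between 9.41 and 11.27 on the graft arrays and between 11.63 and 11.74 on the day 0 arrays. Day 20 replicate 1 stood apart, with a mean level of 12.2 for 6 genes of the kidney proximal tubule, against 5.94 to 5.99 on day 0. In bulk samples of this kind, fewer cells of a type and less RNA per cell cannot be told apart.

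Striated muscle contracts when myosin filaments, built from heavy and light chains, pull on actin filaments, and the troponin complex on the actin filament opens or closes the myosin sites as calcium rises and falls. Heart and skeletal muscle use different members of the same families, and the fetal forms of many of them are shared between both tissues. The ovary holds no striated muscle of its own. Smooth muscle, which surrounds vessels and the follicle wall, has its own actin and myosin genes and no troponin complex in its regulation.

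Many genes of striated and smooth muscle carry a CArG box, the site bound by serum response factor, or an MCAT element (CATTCC), the site bound by TEAD factors, close to their start. RefSeq (GRCm38.p6) gave the 250 bases before the start for 9 of the 10 genes, and both strands were searched. A CArG box stood in 3 of the 9 genes, Acta1, Actc1 and Myl7, and in 1.47% of all 32851 windows of the same length. An MCAT element stood in 5, Acta1, Myl7, Myl1, Tnnt2 and Tnnc1, and in 12.6% of all windows. An E-box (CANNTG), the site of the myogenic factors, stood in 7 of 9 genes and in 66.2% of all windows. No MEF2 site (2.92% of all windows) was found, which says only that these letters are not in these windows. Shown are the windows of the 3 genes with a CArG box and of Tnnt2, whose course over the days differed from that of the others, with CArG boxes and MCAT elements in capitals.
Acta1: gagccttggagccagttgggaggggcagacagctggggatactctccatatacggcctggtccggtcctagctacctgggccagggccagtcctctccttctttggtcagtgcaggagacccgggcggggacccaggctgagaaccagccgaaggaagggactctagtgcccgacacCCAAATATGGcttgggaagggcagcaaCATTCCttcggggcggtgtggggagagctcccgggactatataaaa
Actc1: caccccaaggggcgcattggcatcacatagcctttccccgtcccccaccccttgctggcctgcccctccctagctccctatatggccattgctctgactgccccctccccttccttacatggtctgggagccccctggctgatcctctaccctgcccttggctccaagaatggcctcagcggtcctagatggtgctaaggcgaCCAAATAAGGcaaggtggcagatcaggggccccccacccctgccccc
Myl7: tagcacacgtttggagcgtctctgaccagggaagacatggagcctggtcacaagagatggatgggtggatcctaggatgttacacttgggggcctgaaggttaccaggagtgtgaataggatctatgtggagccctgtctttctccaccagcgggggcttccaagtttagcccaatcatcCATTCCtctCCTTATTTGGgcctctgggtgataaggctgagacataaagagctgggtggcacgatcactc
Tnnt2: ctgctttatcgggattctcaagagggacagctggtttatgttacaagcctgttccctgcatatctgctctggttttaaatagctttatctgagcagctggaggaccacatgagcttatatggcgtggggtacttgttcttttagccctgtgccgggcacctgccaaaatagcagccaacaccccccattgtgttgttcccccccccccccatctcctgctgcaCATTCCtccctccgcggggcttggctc
The Acta1 window is chr8:123894776-123895025 on the minus strand, with the CArG box starting 73 bases and the MCAT element 46 bases before the start of the gene. In Actc1 (chr2:114052876-114053125, minus strand) the CArG box starts 47 bases before the start. In Myl7 (chr11:5898783-5899032, minus strand) the MCAT element and the CArG box lie next to each other, at 70 and 61 bases. The Tnnt2 window (chr1:135836084-135836333, plus strand) holds an MCAT element at 27 bases and no CArG box, and its second start site in RefSeq has neither. A match is a description of the letters and not a site of binding.

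Acta1, the actin of skeletal muscle fibers, had log2 levels of 8.64 and 5.93 on day 0 (replicates 1 and 2), 5.88 on day 4, 5.96 on day 7, 5.83 and 6.08 on day 10, 5.82 on day 15, and 5.97 and 5.61 on day 20. Day 0 replicate 1 stood alone, and day 0 replicate 2 lay within the range of the 7 graft arrays. Actc1, the actin of heart muscle, which fetal skeletal muscle also uses, had 10.93 and 8.08 on day 0, 6.38 on day 4, 6.50 on day 7, 7.29 and 8.02 on day 10, 6.72 on day 15, and 7.23 and 6.18 on day 20. Both day 0 arrays were above all graft arrays, although replicate 2 exceeded the higher day 10 array by 0.07 only. Between the day 0 arrays, replicate 1 over replicate 2 was 6.55-fold for Acta1 and 7.19-fold for Actc1.

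The light chains of myosin sit on the neck of the myosin head. Myl7, the regulatory light chain of the atrium of the heart, had 9.56 and 8.57 on day 0, 5.57 on day 4, 5.04 on day 7, 4.45 and 4.77 on day 10, 4.62 on day 15, and 4.56 and 4.37 on day 20. Of the 10 genes, Myl7 was the one with the clearest gap between grafts and day 0, since day 0 replicate 2 was still 3.0 above the highest graft array. Its levels from day 10 on were close to background, so that the size of the difference, -4.95 and -3.96 on day 10 against replicates 1 and 2 of day 0 and -5.10 and -4.11 on day 20, is uncertain.

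Myl1, the essential light chain of fast skeletal fibers, had 7.12 and 5.25 on day 0, 4.18 on day 4, 4.15 on day 7, 4.02 and 3.94 on day 10, 4.21 on day 15, and 4.35 and 4.17 on day 20. All graft values were close to background, and both day 0 values lay above them, by 2.77 and 0.90 over the highest graft array. Myl4, the light chain of the atrium and of fetal skeletal muscle, had 7.94 and 6.59 on day 0, 6.24 on days 4 and 7, 6.67 and 6.65 on day 10, 6.67 on day 15, and 6.22 and 6.62 on day 20. Day 0 replicate 1 was above the grafts and replicate 2 was not. The other Myl4 probe set lay between 5.88 and 6.20 on all 7 graft arrays and at 5.99 and 6.16 on day 0, and showed no such difference.

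Myh3, the embryonic myosin heavy chain of forming muscle fibers, had 8.19 and 5.06 on day 0, 4.85 on day 4, 4.91 on day 7, 5.02 and 5.08 on day 10, 4.52 on day 15, and 4.85 and 4.76 on day 20. Replicate 1 was 8.72-fold above replicate 2 on day 0, the largest such ratio among the 10 genes, and replicate 2 lay within the range of the grafts.

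Tnnc1, the calcium-binding troponin of heart and slow fibers, had 8.90 and 6.20 on day 0, 6.10 on day 4, 6.03 on day 7, 6.20 and 6.26 on day 10, 6.09 on day 15, and 6.31 and 6.08 on day 20. Its pattern was that of Acta1 and Myh3, with a single high array. Tnnt3, the tropomyosin-binding troponin of fast fibers, had 5.38 on both day 0 arrays, 4.62 on day 4, 4.49 on day 7, 4.53 and 4.40 on day 10, 4.80 on day 15, and 4.36 and 4.47 on day 20. Here the day 0 arrays were alike and both stood above all grafts, whose levels were close to background. Ckm, the creatine kinase of muscle, which restores ATP at the filaments, had 6.38 and 6.72 on day 0, 6.61 on day 4, 6.51 on day 7, 6.26 and 6.30 on day 10, 6.10 on day 15, and 6.42 and 6.18 on day 20. The Ckm values of all 9 arrays stayed within 0.62 of each other, and its other probe set lay between 5.68 and 5.86 on the grafts, against 6.13 and 5.85 on day 0.

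Tnnt2, the tropomyosin-binding troponin of heart muscle, also present in embryonic skeletal muscle, had 7.49 and 4.78 on day 0, 4.89 on day 4, 6.34 on day 7, 7.72 and 8.87 on day 10, 7.99 on day 15, and 7.24 and 8.44 on day 20. It was high on day 0 replicate 1 like the other genes except Tnnt3 and Ckm, low on day 0 replicate 2 and day 4, and high again from day 10 on. Its second probe set had 7.19 and 4.94 on day 0, 4.67 on day 4, 6.04 on day 7, 7.42 and 8.43 on day 10, 7.50 on day 15, and 6.93 and 8.12 on day 20, and was likewise low on day 0 replicate 2 and day 4 and high from day 10 on. The third probe set of Tnnt2 was close to background, at 4.12 to 4.54 on the grafts and 4.45 and 4.58 on day 0.

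**Figure D1:**
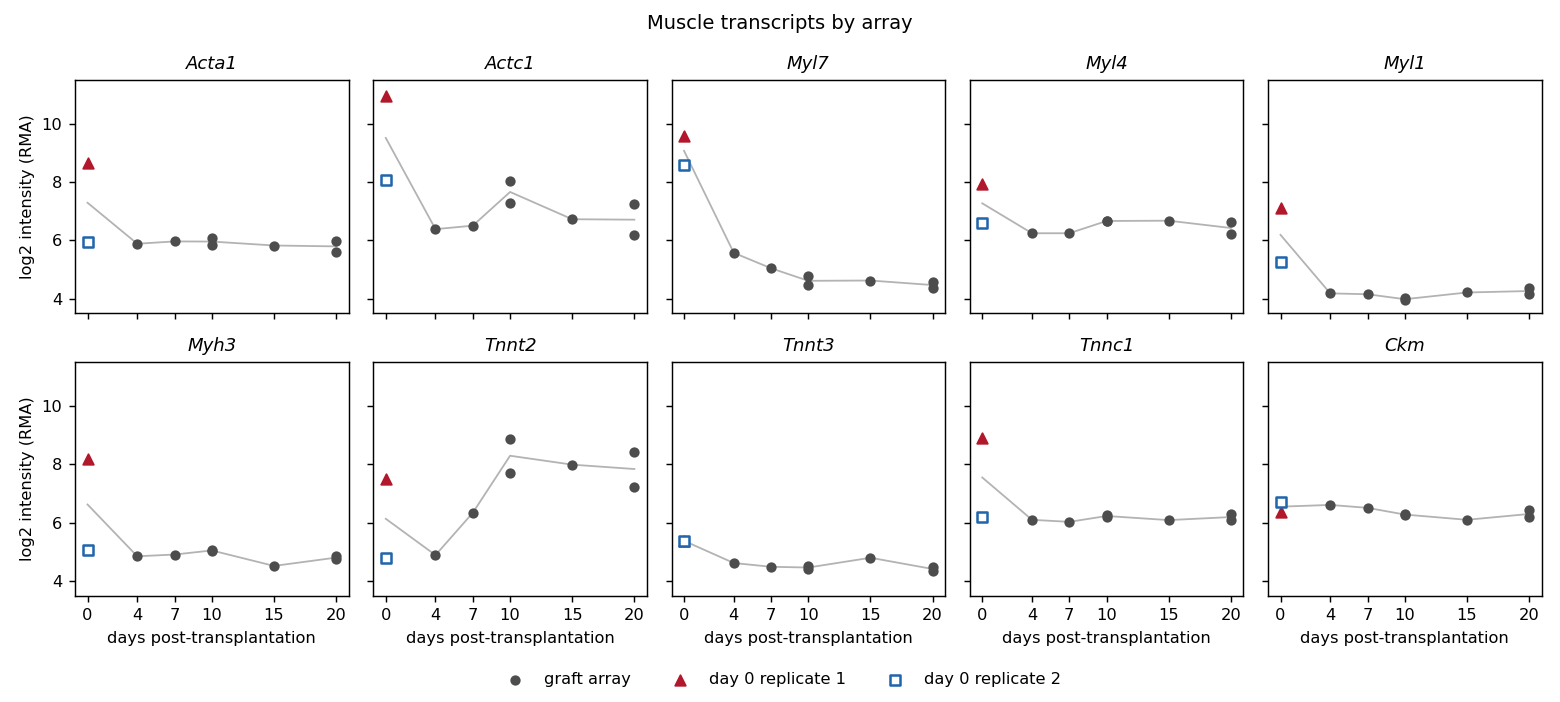
Log2 intensity (RMA) of the 10 genes by days post-transplantation; points are arrays, with day 0 replicate 1 as a red triangle and day 0 replicate 2 as an open blue square (for Tnnt3 they coincide), and grey lines join the means of each day. Acta1, Myl4, Myh3 and Tnnc1 are high on day 0 replicate 1 alone, Myl7 drops below both day 0 arrays, and Tnnt2 reaches 7.24 to 8.87 from day 10 on.

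The size of the difference between grafts and ovaries before transplantation, and for some genes its direction, thus depended on which day 0 array was taken. On day 10, the log2 difference of Acta1 was -2.69 from day 0 replicate 1 and 0.02 from replicate 2, that of Myh3 was -3.14 and -0.02, and that of Tnnc1 was -2.67 and 0.03. For Actc1 the day 10 differences were -3.28 and -0.43, and for Myl1 -3.14 and -1.28. Tnnt2 on day 10 was 0.81 above replicate 1 and 3.51 above replicate 2, and on day 4 it was -2.59 and 0.11. Over the 10 genes, the median of the differences from the day 0 mean was -1.43 on day 4, -1.42 on day 7, -1.33 on day 10, -1.46 on day 15 and -1.42 on day 20, with 9 of 10 negative on each day, whereas the medians of all probe sets lay between -0.11 and -0.06. Without day 0 replicate 1 the median of the 10 was -0.22 on day 10 and -0.34 on day 20, and without replicate 2 it was -2.68 and -2.78. With day 20 replicate 1, which had the kidney transcripts, left out, the day 20 median was -1.57.

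Sorted by overlap, 4 of the 10 genes (Actc1, Myl7, Myl1 and Tnnt3) had both day 0 arrays above all 7 graft arrays, an arrangement found for 19.6% of all probe sets. A further 4 (Acta1, Myl4, Myh3 and Tnnc1) had replicate 1 alone above the grafts, as had 8.42% of all probe sets. Ckm had replicate 2 alone above them (12.8%), and Tnnt2 had neither (59.2%). The classes of Ckm and Myl4 hold for 1 probe set each. By the other probe set, Ckm had replicate 1 alone above the grafts (6.13, with a highest graft value of 5.86), and Myl4 had neither. Day 0 replicate 1 was more than 1 log2 unit above replicate 2 for 7 of the 10 genes and for 3.29% of all probe sets. Since the genes were chosen with these differences known, nothing is read from these counts.

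**Figure D2:**
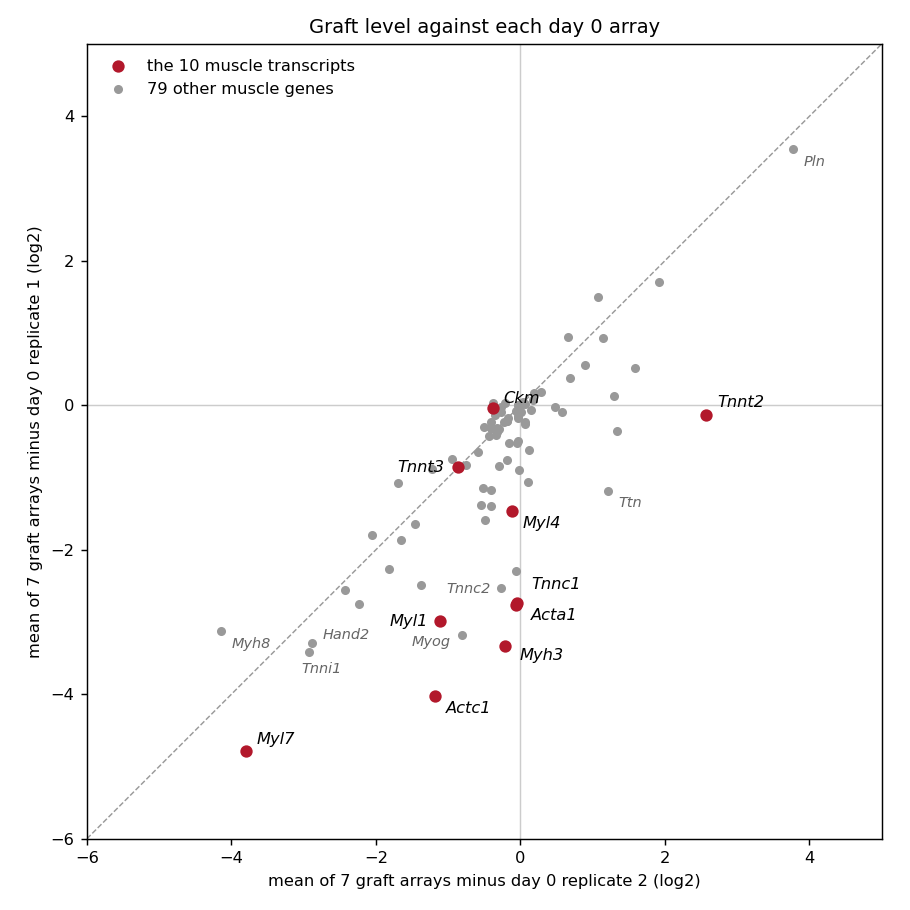
Mean of the 7 graft arrays minus day 0 replicate 1 (vertical axis, log2) against the same mean minus day 0 replicate 2 (horizontal axis, log2), with a point for each of the 10 genes (red) and of 79 other muscle genes (grey); points on the dashed diagonal have equal day 0 levels. Acta1, Tnnc1 and Myh3 lie near 0 on the horizontal axis and at -2.77, -2.74 and -3.33 on the vertical axis, and Tnnt2 lies at 2.57 and -0.13.

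Ranked by the difference between the day 0 arrays among 18194 genes, Myh3 was at place 3, Actc1 at 5, Acta1 at 6, Tnnt2 at 7, Tnnc1 at 9, Myl1 at 33, Myl4 at 72 and Myl7 at 169, while Tnnt3 (place 7106) and Ckm (place 15330) were not near the top. The members were chosen with this difference known, so that their places only describe it. The other Ckm probe set had the opposite order on day 0 (6.13 and 5.85). The genes at places 1 and 2 were S100a8 and S100a9, which encode calprotectin of neutrophils, with differences of 3.97 and 3.45, and Stfa3, a stefin gene of myeloid cells, was at place 4 (3.03). On the grafts, S100a8 was highest on day 10 replicate 2, at 10.43, beside 10.01 on day 0 replicate 1. It was next highest on day 20 replicate 1, at 8.40, and lay between 5.66 and 6.56 on the remaining graft arrays. On that day 10 array Acta1 (6.08), Myh3 (5.08), Actc1 (8.02) and Tnnt2 (8.87) also had their highest graft values. Of these only Tnnt2 exceeded its level on day 0 replicate 1, and the next graft values of Acta1 (5.97) and Myh3 (5.02) were close. All other members had their highest graft value elsewhere. Tnnc1 (6.31) and Myl1 (4.35) had it on day 20 replicate 1, where S100a8 was also raised, and Myl7 (5.57) on day 4. Stfa3 was not raised on day 10 replicate 2, at 3.34. Among the genes with the largest differences in the other direction were Stra8 (6.58 on replicate 1 and 9.63 on replicate 2) and Tex12 (5.66 and 8.79), both used in meiosis. The part of neutrophils and germ cells in the muscle values was not tested. Lists of other tissues that could come with a dissected gonad were measured beside the members. The mean level of 7 cartilage genes was 6.10 to 6.74 on the grafts and 6.20 to 6.53 on day 0, and that of 6 nerve genes was 4.96 to 5.45 on the grafts and 6.27 to 6.36 on day 0. For 7 hepatocyte genes it was 5.53 to 6.02 on the grafts and 6.28 to 6.62 on day 0, and for 5 erythroid genes 4.73 to 6.67 on the grafts and 9.88 to 10.44 on day 0. The means of cartilage and hepatocyte genes hide genes that moved apart. By day means, 5 of 7 cartilage genes were lower on day 20 than on day 0, such as Acan (5.20 against 6.98), while Cnmd was higher (10.90 against 5.15). Of the 7 hepatocyte genes 5 were lower, such as Afp (4.83 against 7.45), while Apoa1 was higher (8.94 against 7.18).

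Day 20 was compared with day 10 by a test. The genes were selected on other contrasts, those of grafts with day 0 and of the day 0 arrays with each other. The test is not independent of that choice, since both days were among the grafts and the day 0 duplicates enter its spread. Of the 10 genes 0 were called (adjusted p under 0.05 and more than 2-fold, limma with Benjamini-Hochberg adjustment over all probe sets), and 0 had an unadjusted p under 0.05. Over all probe sets 0.00222% were called higher and 0% lower, so that this contrast had few calls of any kind. An unadjusted limma p under 0.05 was found for 2253 of all 45101 probe sets, so that 0 of 10 is near that share. The median log2 fold change of the 10 genes, day 20 over day 10, was -0.15, against -0.05 over all probe sets. Actc1 had the largest difference, with 6.70 on day 20 and 7.65 on day 10 (log2 fold change -0.95, 95% interval -3.27 to 1.37). Tnnt2 averaged 7.84 on day 20 and 8.29 on day 10 (-0.45, interval -2.81 to 1.91). The intervals were narrow for Tnnt3 (-0.43 to 0.32) and Ckm (-0.44 to 0.49). They were wide for the genes that differed on day 0, since the fit takes its spread from the duplicates of days 0, 10 and 20 together. For genes such as Acta1 (standard error 0.83) and Tnnc1 (0.81), 0 calls therefore does not show that they were level.

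Tnnt2 was then set against day 4, a comparison added after its values had been seen. It was 10.5-fold higher on day 10 than on day 4 (log2 fold change 3.40, standard error 1.16) and 7.71-fold higher on day 20 (2.95, standard error 1.16), and neither passed the test (limma adjusted p = 0.670 on day 10 and 0.460 on day 20, with 1 array on day 4), while 0% of all probe sets were called on day 10 against day 4 and 0.0177% higher and 0.0177% lower on day 20 against day 4. Each array of days 0, 10 and 20 was left out in turn. The log2 fold change then ranged from 2.83 to 3.97 on day 10 and from 2.35 to 3.55 on day 20. The single day 4 array, the baseline of both, cannot be left out. The standard errors given include the gap of Tnnt2 between the day 0 arrays.

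The other 9 genes did not share this course. Over the 9 arrays, Pearson's r of a gene with the mean of the other 9 members lay between 0.94 and 0.96 for Acta1, Actc1, Myl4, Myl1, Myh3 and Tnnc1, and was 0.73 for Myl7, 0.71 for Tnnt3, 0.03 for Ckm and -0.10 for Tnnt2. Over the 7 graft arrays alone r was 0.34 for Acta1, 0.73 for Actc1, 0.53 for Myl4, -0.63 for Myl1, 0.29 for Myh3, 0.60 for Tnnc1, -0.67 for Myl7, -0.41 for Tnnt3, -0.58 for Ckm and -0.08 for Tnnt2.

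Genes of smooth muscle were measured beside Tnnt2. Acta2, the smooth muscle actin, had 10.67 and 10.31 on day 0, 12.13 on day 4, 12.47 on day 7, 13.13 and 13.49 on day 10, 13.34 on day 15, and 13.18 and 13.45 on day 20. Cnn1, the actin-binding calponin of smooth muscle, had 5.01 and 4.39 on day 0, 5.80 on day 4, 7.94 on day 7, 8.81 and 9.84 on day 10, 8.83 on day 15, and 8.72 and 8.61 on day 20. Acta2, Cnn1, Tagln and Actg2, 4 of the 8 smooth muscle genes measured, had both day 0 arrays below all 7 graft arrays, which was the case for 10.3% of all probe sets. Myh11, the smooth muscle myosin, overlapped, with 8.68 to 10.77 on the grafts and 9.40 and 8.93 on day 0. Over the 7 graft arrays, Pearson's r with Tnnt2 was 0.97 for Acta2 and Tagln, 0.94 for Myh11 and Cnn1, 0.90 for Actg2, 0.73 for Lmod1, 0.52 for Smtn and -0.54 for Myl9. Over all 9 arrays it was 0.67 for Acta2, 0.64 for Tagln, 0.90 for Myh11, 0.76 for Cnn1 and 0.67 for Actg2, since day 0 replicate 1 had high Tnnt2 and low Acta2, Tagln, Cnn1 and Actg2. The arrays share the order of the days, and genes that change over the same days correlate across them.

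**Figure D3:**
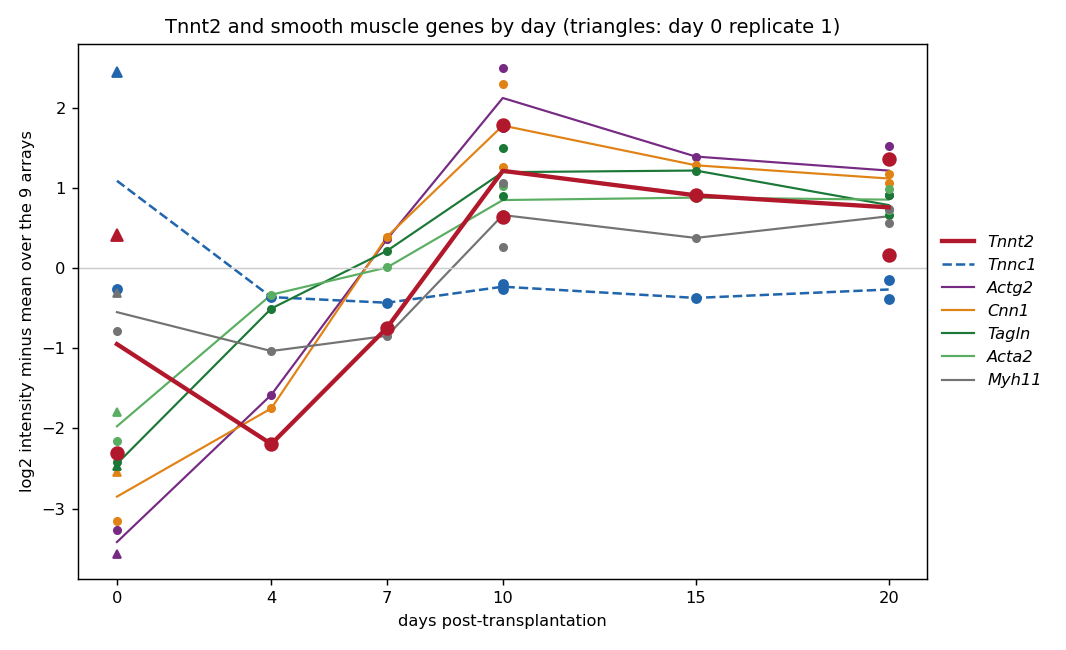
Log2 intensity minus the mean over the 9 arrays for Tnnt2 (red, thick), Tnnc1 (blue, dashed) and 5 smooth muscle genes by days post-transplantation; points are arrays, triangles mark day 0 replicate 1, and lines join the means of each day. From day 4 to day 10 Tnnt2 rises with the 5 smooth muscle genes shown while Tnnc1 stays level. By day means, the log2 level of Tnnt2 is 8.29 on day 10 and 7.84 on day 20. On day 0 replicate 1 Tnnt2 is high, 2.7 above replicate 2. Smtn, Lmod1 and Myl9 are not shown, and Myl9 went down, from 13.34 on day 4 to a mean of 12.21 on day 20.

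Among all 3583 genes with a standard deviation of at least 0.5 over the 9 arrays, those most like Tnnt2, looked up after its course had been seen, began with Myh11 (r = 0.901), the protease gene Pcsk5 (0.900) and Iqca (0.900). They were followed by Myocd (0.883), which encodes myocardin, a partner of serum response factor in heart and smooth muscle. Myocd had 7.50 and 5.81 on day 0, 5.99 on day 4, 7.29 on day 7, 7.42 and 7.57 on day 10, 7.16 on day 15, and 7.33 and 7.29 on day 20. Like Tnnt2, it was high on day 0 replicate 1, low on replicate 2 and on day 4, and high later.

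The genes most like the mean of the 10 members, by the same measure over 9 arrays, were Stfa2l1 (0.985) and Stfa3 (0.975), both stefin genes, and then the muscle genes Tnnc2 (0.972), the calcium-binding troponin of fast fibers, Myog (0.969), the transcription factor myogenin, and Mybph (0.959). The mean of the members, each centred on its own mean, lay between -0.52 and -0.02 on the grafts, against 2.0 on day 0 replicate 1 and 0.20 on replicate 2. Myog had 3.79 to 4.37 on the grafts, against 7.36 and 4.99 on day 0, and Tnnc2 had 5.32 to 5.87 on the grafts, against 8.04 and 5.78 on day 0. The highest value of each was on day 0 replicate 1.

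Beside the 10 genes, 80 other muscle genes were listed in 5 groups, and 79 were measured. The list was written knowing that the day 0 arrays differed in muscle genes. Its tests against day 0 are therefore no independent check on the members, and the counts are read only beside the shares over all probe sets. On day 10, 2 of the 79 rose and 10 fell (limma, adjusted p under 0.05 and more than 2-fold), while 2.87% of all probe sets rose and 1.33% fell. On day 20, 3 rose and 11 fell, while 4.52% of all probe sets rose and 3.10% fell. On day 4 the counts were 0 and 3 (0.774% and 0.155% of all probe sets), on day 7 they were 0 and 6 (1.28% and 0.386%), and on day 15 they were 2 and 8 (2% and 0.8%). The median log2 fold change of the 79 genes was -0.26 on day 10 and -0.31 on day 20, against -0.09 and -0.11 over all probe sets. Without day 0 replicate 1 the calls became 6 on day 10 and 8 on day 20, and without either day 10 array 1 remained on day 10 and 9 on day 20. Between day 20 and day 10, 0 of the 79 were called and 3 had an unadjusted p under 0.05, against 2253 of all 45101 probe sets, and without day 20 replicate 2 there were 2 calls.

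By group, 1 of 35 other sarcomere genes rose and 6 fell on day 10, as did 1 and 1 of 13 genes of calcium release and uptake, 0 and 1 of 9 genes of cardiac factors and hormones, and 0 and 2 of 10 energy genes. On day 20, 2 of the other sarcomere genes rose and 7 fell, with the counts of the other groups as on day 10. Of the 12 myogenic factors and muscle precursor genes 0 were called by limma on either day. At an unadjusted limma p under 0.05, 2 were lower on day 10 and 4 on day 20. Of all 45101 probe sets, 5114 were lower in this way on day 10 and 7135 on day 20. Myod1, which commits cells to skeletal muscle, had 4.18 to 4.72 on the grafts, against 5.66 and 4.91 on day 0. Of the called genes described next, all but Myh8 had day 0 arrays less than 1 log2 unit apart. The calling itself favors such genes, since a gap between the day 0 arrays widens the spread used in the test. Tnni1, the inhibitory troponin of slow fibers, had 10.72 and 10.23 on day 0, 8.47 on day 4, 7.76 on day 7, 7.18 and 7.44 on day 10, 7.20 on day 15, and 6.03 and 7.06 on day 20. By day 10 it fell by 3.17 (log2, limma adjusted p = 0.0138, standard error 0.37), and by day 20 it fell by 3.93 (adjusted p = 0.00527).

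Myh8, the perinatal myosin heavy chain, was the 1 listed gene that was more than 1 log2 unit higher on day 0 replicate 2 than on replicate 1 (1.01% of all probe sets), with 7.62 and 8.63 on day 0, 5.25 on day 4 and 4.22 to 4.49 on later grafts. Myh8 fell by 3.79 on day 10 (limma adjusted p = 0.00704, standard error 0.34), opposite in its day 0 order to Myh3. Since the grafts from day 7 on were close to background, the size of this fall is uncertain. Tnnt1, the tropomyosin-binding troponin of slow fibers, had 10.68 and 10.17 on day 0, 8.81 on day 4 and 7.66 to 7.90 later, and fell by 2.64 on day 10 (adjusted p = 0.0064, standard error 0.23). Mybpc1, the myosin-binding protein C of slow fibers, lay at 4.50 to 4.86 on the grafts, against 7.26 and 7.13 on day 0, and fell by 2.43 (adjusted p = 0.00422, standard error 0.16), a size that is uncertain for the same reason. The 3 forms of troponin T thus differed, with Tnnt1 lower on the grafts than on both day 0 arrays by at least 1.36, Tnnt3 lower by at least 0.57, and Tnnt2 not.

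Outside the sarcomere, Hand2, a transcription factor of heart and limb, had 8.67 and 8.27 on day 0, 6.22 on day 4, 5.59 on day 7, 4.94 and 5.43 on day 10, 5.10 on day 15, and 5.15 and 5.19 on day 20. Hand2 fell by 3.28 on day 10 (limma adjusted p = 0.00461, standard error 0.24) and by 3.30 on day 20 (adjusted p = 0.00285). Hand2 passed with any 1 array of days 0, 10 or 20 left out. Ryr1, the calcium release channel of skeletal muscle, fell by 2.57 on day 10 (adjusted p = 0.00518, standard error 0.20) to 4.49 and 4.53, close to background, against 7.30 and 6.85 on day 0, so that the size is uncertain. Of the energy genes, Eno3, the enolase of muscle, fell by 1.68 on day 10 (adjusted p = 0.0369), and Cox7a1, a muscle form of a cytochrome oxidase subunit, by 1.33 (adjusted p = 0.0239).

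Pln, which encodes phospholamban, a brake on the calcium pump of heart, slow and smooth muscle, went the other way. It had 5.17 and 4.94 on day 0, 8.40 on day 4, 8.98 on day 7, 9.18 and 8.66 on day 10, 8.96 on day 15, and 7.55 and 9.18 on day 20. Pln was 14.6-fold higher on day 10 (3.87 on the log2 scale, limma adjusted p = 0.0208, standard error 0.53) and 9.95-fold higher on day 20 (3.31, adjusted p = 0.0213). Tpm2, a tropomyosin that smooth muscle uses too, was also called higher on both days, with 11.31 to 12.37 on the grafts, against 10.23 and 10.01 on day 0. On day 20 Myom2, which encodes an M-band protein of striated muscle, was also called higher, with 5.21 and 4.53 on day 0, 3.82 to 5.18 on the grafts of days 4 to 15, and 6.33 and 6.94 on day 20.

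With either day 10 array left out, the day 10 calls of Mybpc1, Myh8, Ryr1 and Tnnt1 ended (adjusted p up to 0.0542, 0.0898, 0.0691 and 0.0717). Leaving out any 1 array of day 0 or day 10 ended the day 10 call of Tnni1 (up to 0.127) and the calls of Pln (up to 0.155 on day 10 and 0.122 on day 20), Eno3 (0.27 and 0.111) and Cox7a1 (0.18 and 0.0954). The day 20 calls of Hand2, Mybpc1, Myh8, Ryr1, Tnni1 and Tnnt1 passed in all 6 cases.

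**Figure D4:**
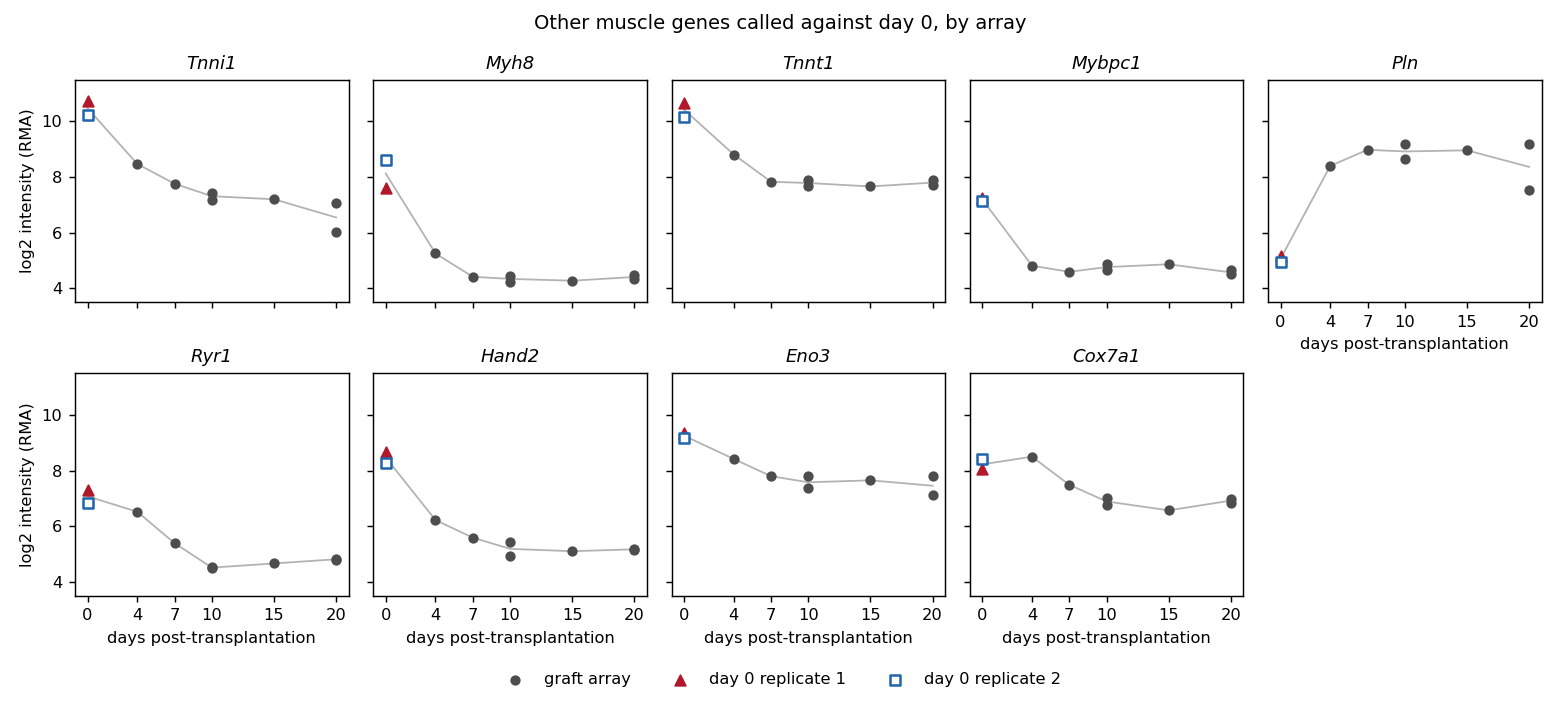
Log2 intensity (RMA) of 9 other muscle genes called on day 10 or day 20 by days post-transplantation; points are arrays, day 0 replicate 1 is the red triangle and day 0 replicate 2 the open blue square, and grey lines join the means of each day. The day 0 arrays lie close together for all but Myh8, which the calling itself favors, and Pln is the only panel in which all 7 graft arrays stand above day 0.

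Sorted like the 10 members, 31 of the 79 other genes had both day 0 arrays above all grafts, 13 had replicate 1 alone above them, 5 replicate 2 alone and 30 neither, and the shares over all probe sets are those given for the members. Tpm2, Mybpc3, Pln and Fabp3, 4 of the 79, had both day 0 arrays below all grafts, as had 10.3% of all probe sets. Day 0 replicate 1 exceeded replicate 2 by more than 1 log2 unit for 10 of the 79, against 7 of the 10 members and 3.29% of all probe sets. The 10 were Mylpf, Tnni3, Tnnc2, Ttn, Neb, Mybph, Myot, Sln, Myog and Myocd. Replicate 1 was above replicate 2 by any amount for 55 of the 79 and 8 of the 10 members, against 42.5% of all probe sets. Ttn, the giant spring protein of the sarcomere, had 6.42 and 4.02 on day 0, 3.99 on day 4, 4.59 on day 7, 4.55 and 6.10 on day 10, 5.99 on day 15, and 5.84 and 5.53 on day 20, and Sln, which encodes sarcolipin, an inhibitor of the calcium pump, had 3.82 to 4.69 on the grafts, against 6.36 and 4.12 on day 0.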

How the data were processed

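The authors hybridised the pooled RNA to Affymetrix whole-genome mouse arrays after labelling with 1 of 2 kits, with no record per array of the kit. The deposited log2 intensities were made by the authors with the robust multiarray algorithm (RMA), that is, background correction, quantile normalization and a summary per probe set. Detection calls were not part of them, and precision rests on the number of arrays (9).

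Probe sets were named from the platform annotation, with 34958 to a single symbol, 932 to several and 9211 to none. A mean per day was fitted to all 45101 probe sets with limma 3.58.1 (lmFit and eBayes) in R 4.3.3, with Benjamini-Hochberg adjustment over all of them, and the test was tried on simulated data. The fit had 3 residual and 2.69 prior degrees of freedom (prior variance 0.0423), and days 4, 7 and 15, with 1 array each, borrow the spread of the duplicates. Thresholds were 0.05 on the adjusted p and 2 on the fold. Tables were made with pandas 2.3.3 and numpy 2.4.6 in Python 3.11.15, and plots with matplotlib 3.10.9.

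The members and lists were chosen with earlier results of these data known. Of the other muscle genes, up to 4 per list with the largest change among those called on day 10 or 20 were named, together with the 10 genes most like the mean of the members and the 10 on each side with the largest difference between the day 0 arrays. Tpm2, Myom2, Myod1, Ttn, Sln, Myocd and the smooth muscle genes were named after their values had been seen. 1 listed gene, Xirp2, was not named by the annotation. The alternatives tried were an intensity trend, array weights, repeated quantile normalization, median centring, and a filter and a floor on low values. Others were only the arrays compared, a replicate block, a threshold of 1.5 on the fold and another probe set rule. Each array of days 0, 10 and 20 was also left out in turn.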

Additional observations from a re-analysis of the deposited data

How the results depend on the processing

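The number of other muscle genes called, 12 on day 10 and 14 on day 20 against day 0, became 7 (3 higher, 4 lower) and 8 (3 higher, 5 lower) after dropping the probe sets whose mean lay below the median, where 19 of the 79 genes were left. With only the arrays of the days compared, 9 were called on day 20 (1 higher, 8 lower). With 1 array left out the counts ranged from 1 to 13 on day 10 and from 8 to 19 on day 20, and from 0 to 2 for day 20 against day 10. The median of the 10 members against day 0 ranged from -2.68 to -0.22 on day 10 and from -2.78 to -0.34 on day 20. The other alternatives gave 10 to 14 calls on day 10 and 13 to 16 on day 20, and the count of members called between days 20 and 10 was 0 in all. The causes were not tested.

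Samples of the same replicate number did not deviate together (correlations of the deviations -0.16 for days 0 and 10, 0.15 for days 0 and 20 and -0.13 for days 10 and 20), so that they share only a number. With the replicate number as a block, 11 other muscle genes were called on day 10 (3 higher, 8 lower), 13 on day 20 (3 higher, 10 lower) and 0 between them, and with the day 10 numbers crossed, added after the data had been seen, the counts were 12, 16 and 0.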

Other observations

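The 10 genes with the largest positive difference between the day 0 arrays, replicate 1 over replicate 2, held 5 of the members beside S100a8, S100a9, Stfa3, Olfm4 (2.7), a gene of neutrophil granules, and Srrm2 (2.64), which encodes a splicing factor. On the negative side stood Stk31 (-3.40), Ugt8a (-3.28), Tex101 (-3.28), Dclk1 (-3.27), Prss22 (-3.16), Tex12 (-3.13), Stra8 (-3.05), Zfp42 (-2.86), Trap1a (-2.79) and Btbd18 (-2.79), with no muscle gene among them. Stra8, which opens meiosis in germ cells, lay between 5.21 and 5.73 on the 7 graft arrays, below its 6.58 on day 0 replicate 1 and its 9.63 on day 0 replicate 2. These differences compare 1 array with 1 array and have no replicate check. Since the members were chosen with this difference known, nothing is read from their number among these genes.

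The remaining genes most like the mean of the members over the 9 arrays were Tceal7 (r = 0.942), Itgb1bp2 (0.936), which encodes melusin, a muscle protein at the cell membrane, Klhl41 (0.931), a sarcomere-associated Kelch gene, Zfp365 (0.929) and Tmc1 (0.929). Of the 10, Tnnc2, Myog and Mybph were on the lists of muscle genes. Those most like Tnnt2 went on with Apoa1 (0.881), Cd164l2 (0.872), Khdc3 (0.868), Chp2 (0.866), Kcnmb1 (0.859), the beta subunit of a potassium channel of smooth muscle, and Myh2 (0.858), a myosin heavy chain of fast fibers.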
